A study of Mus musculus with 8 samples.

Results

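The lysosomal genes described here were the subunits and accessory proteins of the vacuolar proton pump (names beginning with Atp6v or Atp6ap), the cathepsins other than Ctsk and Ctss, and a named set of 17 hydrolases, lipid transporters, membrane proteins and the transcription factor Tfeb. These names matched 57 genes on the arrays, and 48 of them were tested among 15440 genes, the rule being a signal well above background on each array of 1 or more treatments. RNA came from RAW264.7 cells, an established mouse line with macrophage properties. Control cells were untreated. ATRA cells received all-trans retinoic acid, a ligand of the retinoic acid receptors, IL-13 cells received interleukin-13, a cytokine of alternative (M2) macrophage activation, and IL-13 + ATRA cells received both. Each of the 4 treatments had 1 array after 12 h and 1 after 24 h, 8 arrays in all. No dose was given in the sources used here, no treatment was repeated at the same time, and the labels do not describe the cultures as independent. The p-values therefore reflect only how far the 12 h and 24 h arrays disagreed. In the submitters' terms, the control and ATRA groups were unpolarized, the IL-13 group was M2, and M2 polarization was suppressed where both agents were given.

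The lysosome is the acidic compartment in which macrophages break down what they engulf and their own worn organelles. The proton pump acidifies it: its V1 sector, on the cytosolic side, burns ATP, and its V0 sector carries protons across the membrane. Cathepsins and other proteases, glycosidases and lipid hydrolases then work at that low pH, Lamp proteins line the membrane, and TFEB, a basic helix-loop-helix factor, is known for switching on many of these genes through the CLEAR element, whose core is the palindrome CACGTG.

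The 250 bases upstream of the transcript start are shown for 4 genes because the results turn on Ctsd and Atp6v0a1, Gaa had the widest spread over the arrays, and Lamp1 is a standard lysosomal marker with several core motifs. They are from RefSeq on build GRCm38.p6, 5′ to 3′ on the strand of the gene, in lower case with each CACGTG in capitals. The stretches are chr7:142387828-142388077 on the minus strand for Ctsd, chr11:119267713-119267962 on the plus strand for Gaa, chr8:13158911-13159160 on the plus strand for Lamp1 and chr11:101010148-101010397 on the plus strand for Atp6v0a1.
Ctsd: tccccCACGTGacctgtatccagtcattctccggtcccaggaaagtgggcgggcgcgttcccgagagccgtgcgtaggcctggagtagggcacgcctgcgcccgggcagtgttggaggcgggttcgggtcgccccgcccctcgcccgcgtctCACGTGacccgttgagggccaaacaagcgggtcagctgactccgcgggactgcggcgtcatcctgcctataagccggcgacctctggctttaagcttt
Gaa: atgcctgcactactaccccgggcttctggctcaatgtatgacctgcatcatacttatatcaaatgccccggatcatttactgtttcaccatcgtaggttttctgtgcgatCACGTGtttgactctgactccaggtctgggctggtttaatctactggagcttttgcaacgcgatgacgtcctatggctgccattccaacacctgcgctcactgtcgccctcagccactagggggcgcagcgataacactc
Lamp1: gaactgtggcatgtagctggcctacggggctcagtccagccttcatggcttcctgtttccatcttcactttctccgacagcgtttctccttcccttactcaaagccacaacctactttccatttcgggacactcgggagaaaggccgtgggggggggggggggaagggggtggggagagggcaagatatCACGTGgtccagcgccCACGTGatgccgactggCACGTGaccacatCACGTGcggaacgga
Atp6v0a1: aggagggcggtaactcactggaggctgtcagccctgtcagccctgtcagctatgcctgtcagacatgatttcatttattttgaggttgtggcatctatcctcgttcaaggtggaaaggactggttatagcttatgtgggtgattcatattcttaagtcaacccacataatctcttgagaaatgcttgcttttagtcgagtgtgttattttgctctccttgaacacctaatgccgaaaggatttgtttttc
In Ctsd the motif began 245 and 98 bases before the start, in Gaa 140 bases before it, and Lamp1 held 4 copies, the first 61 bases before the start. The Atp6v0a1 stretch held none. Of the 48 lysosomal genes tested, 38 had a window of 300 bases (250 upstream, 50 downstream) in the RefSeq table, and 13 of these (34.2%) held CACGTG, which reads the same on both strands. The share was 11.4% of the 10173 tested genes with a window and 8.09% of all 27025 genes in that table. The longer TCACGTGA, which contains the first motif, was in 6 of the 38 (15.8%) against 2.11% of tested genes, and CACGTG with GT directly before it and AC directly after it was in 0 of the 38 against 0.777%. Those with CACGTG were Atp6v1a, Atp6v0b, Atp6v0d1, Atp6v0e, Ctsa, Ctsd, Ctsf, Ctsl, Lgmn, Gaa, Glb1, Lamp1 and Mcoln1. None of the 3 Tfeb windows held it. A match describes letters in a window and is no evidence of binding.

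Signals were Feature Extraction's processed intensities, scaled to the 75th percentile of each array and given as log2. That percentile ranged from 447.9 to 739.1 before scaling, both extremes on IL-13 arrays, and 54.1% to 61.4% of probes were well above background. All 7 macrophage markers were measured, and their summed normalized signal was 216821 to 284793 over the arrays. Of the markers of other cell types, 0 of 3 epithelial, 2 of 4 T cell, 2 of 3 B cell and 1 of 3 fibroblast genes were measured, each list summing to under 80 on every array. The treatments were visible in their known target genes: Arg1 was at least 37.1-fold higher with IL-13 than in control cells, and Tgm2 was 4.50 ± 0.39 log2 units (standard error) higher with ATRA. With both agents Arg1 was 5.47 ± 0.50 above IL-13 alone, although that group is labelled as suppressed. Of the 3 IL-13 targets checked, 1 lay higher in that comparison and 2 lower (median -0.04). Mrc1 gave 8.37 and 9.47 with IL-13 but 7.24 and 7.32 with both agents. Cish gave 10.22 and 10.68, then 10.14 and 10.69. Time coincided with the slide: 12 h arrays were on slide 1 and 24 h arrays on slide 2, and every treatment comparison was made within a slide.

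Most lysosomal genes stayed within 2-fold over all arrays. The highest and lowest of the 8 arrays differed by less than 2-fold for 41 of the 48 genes (85.4%, against 71.4% of all tested genes) and by less than 1.5-fold for 22 (45.8%, against 42.3%). Their median absolute log2 difference was 0.21 with ATRA against control, beside 0.16 over all genes. It was 0.24 beside 0.19 for IL-13 + ATRA against IL-13, and 0.19 beside 0.24 for IL-13 against control. Both agents gave 0.21 beside 0.25 against control, and 0.11 beside 0.17 against ATRA. With both agents against control, 4 genes passed the test (limma, with p adjusted by Benjamini-Hochberg over the 15440 genes and a threshold of 0.05), while 8.45% of all genes did. Atp6v0a1 and Ctsd rose, where 3.01% of all genes rose, and Atp6ap1 and Tfeb fell, where 5.45% fell. With IL-13 alone against control, 1 of 48 passed, Atp6v0a1, beside 1.28% of all genes, and 8 of 48 (16.7%) had an unadjusted p under 0.05 beside 23.9%. ATRA against control gave 0 of 48 beside 1.8%, and IL-13 + ATRA against IL-13 gave 0 beside 2.58%; at an unadjusted p under 0.05 there were 8 and 12 genes (16.7% and 25%, against 15.2% and 19.1% of all genes). IL-13 + ATRA against ATRA gave 0 beside 0.363%, with 3 of 48 (6.25%) at an unadjusted p under 0.05 beside 13% of all genes. For both agents against control, 10 of 48 (20.8%) had an unadjusted p under 0.05 beside 28.2%. Ctsd was called by 5 of 10 other settings with ATRA against control and by 5 of 10 with IL-13 + ATRA against IL-13.

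**Figure D1:**
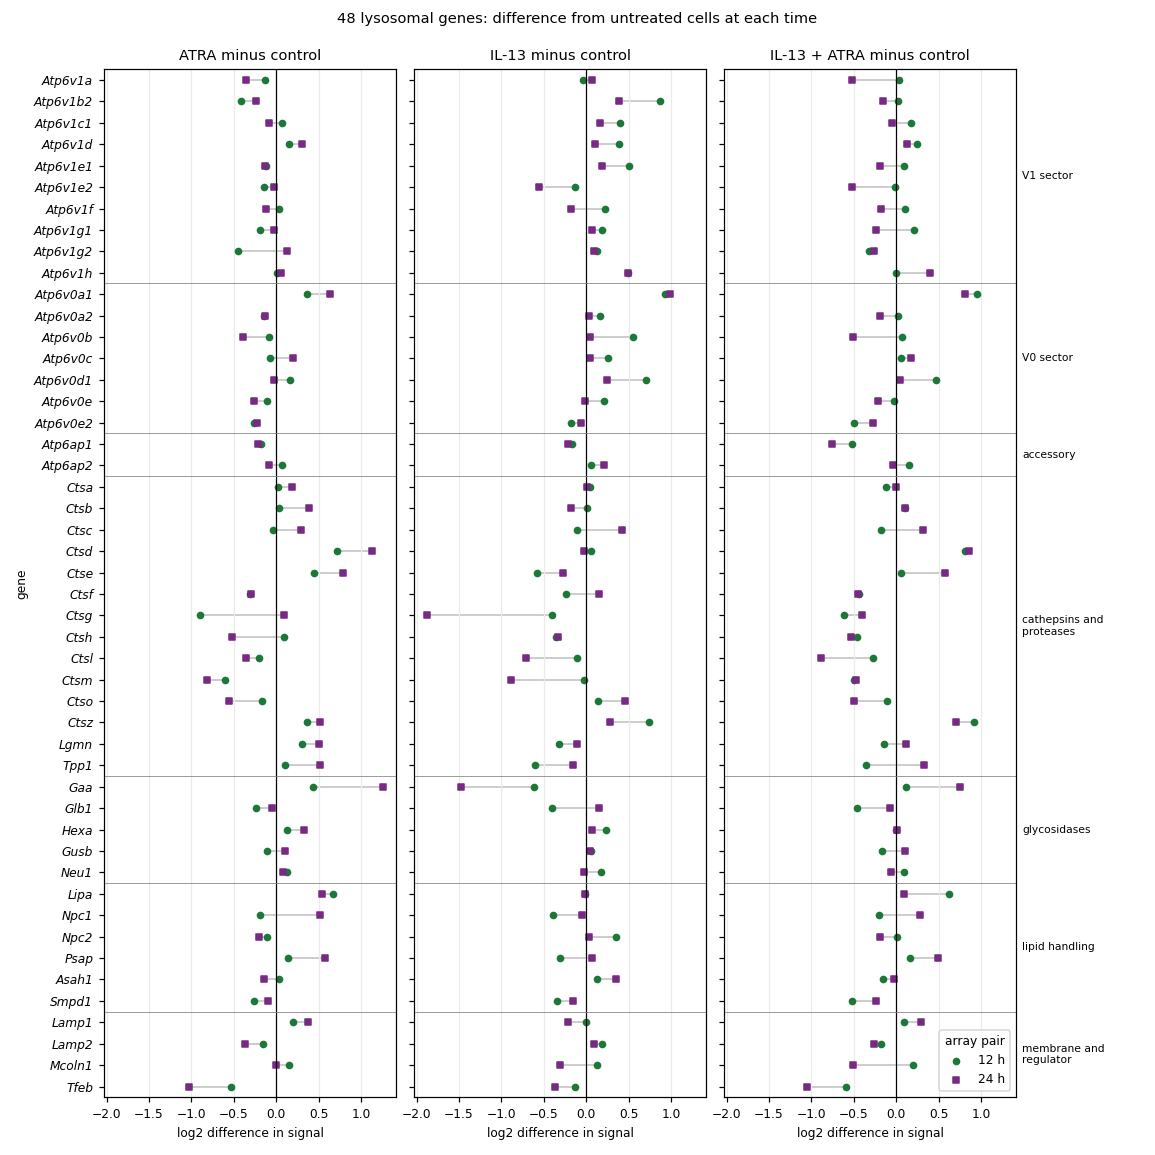
Log2 difference from the control array of the same time for each of the 48 lysosomal genes (rows, grouped by role) with ATRA, IL-13 and IL-13 + ATRA; circles are 12 h and squares 24 h, 1 array pair each. Most points lie within 0.5 of 0, while Ctsd lies to the right with ATRA and with both agents, Tfeb to the left in the same panels, and Atp6v0a1 to the right with IL-13.

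The median difference from control over the 48 genes was small at each time. With ATRA it was -0.06 at 12 h and -0.03 at 24 h, with IL-13 it was 0.06 and 0.03, and with both it was 0.003 and -0.07, beside -0.04 to 0.02 over all genes. The 12 h value for IL-13 turned to -0.08 under quantile normalization, and the split of 27 genes higher and 21 lower with IL-13 turned to 20 and 28. When ATRA was added to IL-13, 13 of the 48 lay higher and 35 lower (median -0.11). Over all genes 7445 lay higher and 7995 lower (median -0.01). The split of the 48 was the same under quantile normalization and the deposited values, and 15 and 33 under normexp. It carries no test. The limma 95% interval lay within 2-fold of no change for 43 of 48 genes with IL-13 (89.6%, against 77% of all genes) and for 42 with ATRA (87.5%, against 80.4%). It did so for 42 when ATRA was added to IL-13 (87.5%, against 78.7%) and for 40 with both agents against control (83.3%, against 75.3%). The median half-width of these intervals was 0.37 log2 units, and smaller differences in a typical gene were not resolvable with 2 arrays per treatment.

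The V1 sector of the proton pump was measured in 10 of 13 listed subunits. With IL-13, 9 of these 10 lay above control and 1, Atp6v1e2, below, with a median of 0.18 log2 units beside 0.00 for all genes. In the limma test 0 passed, and 3 (30%) had an unadjusted p under 0.05, beside 23.9% of all genes. Quantile normalization left 6 above and 4 below with the median still at 0.20. Adding ATRA to IL-13 put 9 of 10 below IL-13 alone and 1 above, with a median of -0.24 beside -0.01. That split was the same under the 3 other scalings. Here too 0 passed, with 2 (20%) at an unadjusted p under 0.05, beside 19.1% of all genes. Atp6v1b2, a nucleotide-binding subunit, gave log2 signals of 9.34 at 12 h and 9.46 at 24 h in control cells, 8.93 and 9.22 with ATRA, 10.21 and 9.85 with IL-13, and 9.37 and 9.31 with both. Both IL-13 arrays were above every other array, and the 12 h ATRA array was lowest. The difference was 0.62 ± 0.18 for IL-13 against control (adjusted p = 0.139) and -0.69 ± 0.18 for IL-13 + ATRA against IL-13 (adjusted p = 0.130).

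Atp6v1h, the regulatory H subunit, stood at 11.19 and 11.21 in control cells, 11.19 and 11.27 with ATRA, 11.68 and 11.71 with IL-13, and 11.18 and 11.62 with both. IL-13 alone was 0.49 higher than control at each time (adjusted p = 0.144), and the cells given both agents resembled control at 12 h and IL-13 at 24 h. Its other probes gave 0.37 and -0.41 for IL-13 against control, so the probes disagreed. Atp6v1e1, part of the peripheral stalk, was 0.51 and 0.19 above control with IL-13, and gave -0.42 and -0.38 for both agents against IL-13 (adjusted p = 0.204 and 0.205). The other V1 subunits kept all 8 arrays within 0.61 log2 units on their brightest probes, while a second Atp6v1g2 probe gave 0.64 for IL-13 against control and -0.77 for IL-13 + ATRA against IL-13.

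**Figure D2:**
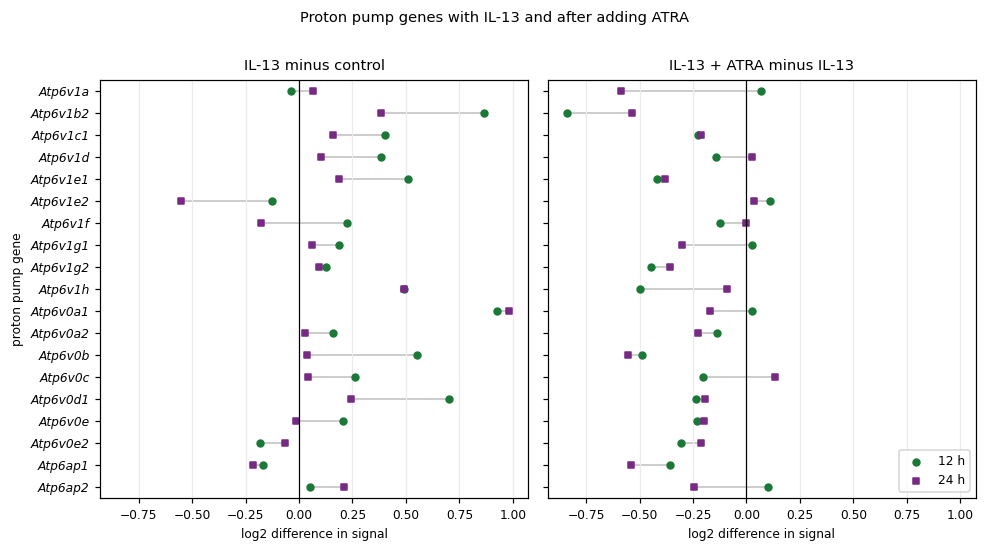
Log2 differences for the 19 measured proton pump genes, IL-13 minus control (left) and IL-13 + ATRA minus IL-13 (right); circles are 12 h and squares 24 h, 1 array pair each. Points lie mostly right of 0 on the left and left of 0 on the right, with Atp6v0a1 near 0.95 on the left and near 0 on the right.

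In the V0 sector 7 of 9 listed subunits were measured, and 6 of 7 lay above control with IL-13 (median 0.15, or 0.07 under quantile normalization, with the same count under the 3 other scalings). All 7 lay below IL-13 alone once ATRA was added (median -0.21), except that normexp background correction put 1 above. Tcirg1, a further V0 subunit whose name falls outside the rule, went the other way. Its log2 signals were 12.05 and 11.35 in control cells and 12.16 and 12.00 with ATRA. They were 12.00 and 10.12 with IL-13, and 12.28 and 11.64 with both. Atp6v0a1, 1 of the alternative a subunits that direct the pump to different membranes, gave 7.39 and 7.35 in control cells, 7.76 and 7.99 with ATRA, 8.32 and 8.34 with IL-13, and 8.35 and 8.16 with both. All 6 treated arrays were above both control arrays, and those with IL-13 were above those with ATRA alone. It rose 1.94-fold with IL-13 (0.95 ± 0.13, adjusted p = 0.0496) and 1.84-fold with both agents against control (0.88 ± 0.13, adjusted p = 0.0240). With ATRA alone the difference was 0.50 ± 0.13 (adjusted p = 0.167), and adding ATRA to IL-13 gave -0.07 (95% interval -0.41 to 0.27). The interaction was -0.57 ± 0.19, with an unadjusted p of 0.0274 and an adjusted p of 1.

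The IL-13 call of Atp6v0a1 was at the edge of the threshold: it was lost without any 1 of the 8 arrays (adjusted p 0.0833 to 0.229), with normexp (0.0550), with the mean of all passing probes (0.0899), with only the 4 arrays compared (0.145) and without a filter on dim probes (0.263). The call with both agents was lost without either control array or either IL-13 + ATRA array (0.0936 to 0.138). It was also lost with the mean of all probes (0.0692), with the 4 arrays compared (0.0508) and without the filter (0.140). Its other probes gave 0.32 and 1.09 with IL-13, and 0.28 and 0.75 with both, all in the same direction.

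Atp6v0b, a proteolipid of the membrane ring, gave 13.66 and 13.99 in control cells, 13.58 and 13.60 with ATRA, 14.22 and 14.03 with IL-13, and 13.73 and 13.48 with both. Both IL-13 arrays were highest, but the 24 h control array came within 0.04 of its IL-13 partner. Adding ATRA to IL-13 gave -0.52 ± 0.17 (adjusted p = 0.190). Atp6v0d1, which joins the sectors, was 0.70 and 0.24 above control with IL-13 (adjusted p = 0.158). The remaining V0 subunits kept all 8 arrays within 0.59 on their brightest probes, and a second Atp6v0e probe gave -0.58 for both agents against control. Over the 29 further probes of these genes, 18 to 25 had the sign of the brightest probe, depending on the comparison.

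Of the 2 accessory proteins, Atp6ap1 (Ac45), which helps assemble and direct the pump, fell with both agents. Its signal was 11.70 and 11.64 in control cells, 11.53 and 11.43 with ATRA, 11.53 and 11.43 with IL-13, and 11.18 and 10.89 with both. The arrays with both agents were the lowest pair and overlapped no other treatment, while each agent alone lay between them and control. Against control it fell by 0.64 ± 0.11, 1.56-fold lower (adjusted p = 0.0336). The differences were -0.45 against IL-13 (adjusted p = 0.125) and -0.44 against ATRA (adjusted p = 0.235), and -0.19 and -0.20 for each agent alone against control. The call was lost without 6 of the 8 arrays (all but the IL-13 ones; adjusted p 0.0851 to 0.199), without the filter (0.181) and with only the 4 arrays compared (0.107). Atp6ap2, the prorenin receptor, kept its 8 arrays within 0.40.

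RAW264.7 cells can form osteoclasts, bone-resorbing cells rich in this pump, and osteoclast markers moved with the same treatments. Of 5 markers listed, 4 were measured (Ctsk, Acp5, Dcstamp, Ocstamp) and Calcr was well above background on 0 arrays. Their summed normalized signal was 1734 at 12 h and 2213 at 24 h in control cells, 409 and 312 with ATRA, 4757 and 3719.6 with IL-13, and 1463 and 735 with both. All 4 lay above control with IL-13, Acp5 by the most (2.32 ± 0.43). In limma 0 passed, and 3 had an unadjusted p under 0.05, beside 23.9% of all genes. With ATRA, the fusion genes Dcstamp (-2.06 ± 0.30) and Ocstamp (-3.82 ± 0.33) fell, and they fell again when ATRA was added to IL-13 (-2.03 and -2.47; adjusted p = 0.0412 and 0.0348). Acp5 went the other way: it was 0.68 ± 0.43 above control with ATRA (adjusted p = 0.553) and 0.36 ± 0.43 above IL-13 with both agents (adjusted p = 0.708), and it rose by 2.67 ± 0.43 with both agents against control (adjusted p = 0.0274), where the median of the 4 markers was -0.72. The part of these cells or genes in the pump's values was not tested. Atp6v0d2, the d subunit known from osteoclasts, was well above background on 2 arrays and not on both of any treatment, just outside the filter.

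Among the proteases, 14 of 18 listed genes were measured. With ATRA 8 of 14 lay above control and 6 below, with a median of 0.11 beside -0.02 for all genes. With IL-13, 5 lay above and 9 below, with a median of -0.15, and quantile normalization gave 3 and 11. Ctsd, the main aspartic protease of lysosomes, gave 14.91 and 14.95 in control cells, 15.63 and 16.07 with ATRA, 14.97 and 14.92 with IL-13, and 15.72 and 15.81 with both. The 4 arrays with ATRA were all above the 4 without it, and the IL-13 arrays lay beside the controls.

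Ctsd rose 1.79-fold with both agents against control (0.84 ± 0.15, adjusted p = 0.0350). The difference was 0.92 ± 0.15 for ATRA against control (adjusted p = 0.0594) and 0.82 ± 0.15 for IL-13 + ATRA against IL-13 (adjusted p = 0.0658). These last values were just outside the threshold, and the settings that brought each inside it went down to 0.0168 and 0.0237 with trend and robust moderation. Without the filter they were 0.281 and 0.302. When single arrays were left out, the 2 differences ran from 0.71 to 1.13 and from 0.70 to 0.94. IL-13 against control gave 0.02 (95% interval -0.36 to 0.40). A second Ctsd probe gave 1.06, 0.85 and 0.96 for ATRA against control, both agents against IL-13 and both against control. The call with both agents was lost without either control array or either IL-13 + ATRA array (adjusted p 0.146 to 0.182), without the filter (0.170) and with only the arrays compared (0.0549).

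Ctse, an aspartic protease of endosomes, gave 8.37 and 8.31 in control cells, 8.81 and 9.10 with ATRA, 7.79 and 8.04 with IL-13, and 8.42 and 8.89 with both. Here the IL-13 arrays were the lowest pair and each array with ATRA was above both control arrays. The differences were 0.62 ± 0.15 for ATRA (adjusted p = 0.140), -0.43 ± 0.15 for IL-13 (adjusted p = 0.182) and 0.74 ± 0.15 for IL-13 + ATRA against IL-13 (adjusted p = 0.0816). Ctsz, a carboxypeptidase also called cathepsin X, gave 15.10 and 15.30 in control cells, 15.46 and 15.82 with ATRA, 15.84 and 15.58 with IL-13, and 16.02 and 16.0015 with both. Each treated array exceeded both controls, and the arrays with both agents were highest. Both agents against control gave 0.81 ± 0.17, 1.75-fold, with an adjusted p of 0.0509; IL-13 alone gave 0.51 and ATRA alone 0.44 (adjusted p = 0.173 and 0.325). Its second probe gave 0.98, 0.57 and 0.58 in the same order.

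Ctso, a papain-like cathepsin, was 9.99 and 10.004 in control cells, 9.82 and 9.44 with ATRA, 10.13 and 10.46 with IL-13, and 9.88 and 9.50 with both. The IL-13 arrays were the highest pair and the 4 arrays with ATRA the lowest. IL-13 + ATRA against IL-13 gave -0.60 ± 0.21 (adjusted p = 0.209). Lgmn, the asparaginyl endopeptidase that trims other cathepsins, was 0.40 ± 0.12 higher with ATRA than in control cells (adjusted p = 0.195) and -0.41 ± 0.12 with both agents against ATRA (adjusted p = 0.265). Ctsl, an elastin- and collagen-degrading protease, gave -0.58 ± 0.19 with both agents against control (adjusted p = 0.127), Ctsh gave -0.50 (adjusted p = 0.158) and Ctsf gave -0.45 (adjusted p = 0.118). Ctsa and Ctsb, the carboxypeptidase partner of neuraminidase and the cysteine protease abundant in macrophages, stayed within 0.19 and 0.56 over the 8 arrays on their brightest probes. Other probes disagreed: for both agents against control a second Ctsb probe gave 0.87 and 1 of 3 further Ctsa probes gave -0.61. Ctsc, a dipeptidyl peptidase that activates granule proteases, spanned 0.42, and Tpp1, a tripeptidyl peptidase, spanned 0.71.

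A pair of proteases lay near background. Ctsg, a serine protease of neutrophil granules, was well above background on 4 arrays and on 0 of the 2 with IL-13. Its log2 signals were 3.76 and 3.92 in control cells, 2.86 and 4.01 with ATRA, 3.36 and 2.05 with IL-13, and 3.15 and 3.51 with both. As a mean of 2 arrays, IL-13 was at least 1.65-fold lower than control (limma adjusted p = 0.265). The limit here is the mean of each array's lowest signal well above background or the gene's own signal, if higher. Ctsg passed the filter only through its control arrays. The filter thus favoured values below control, and this difference is a description only. For both agents against IL-13, with 1 of 2 and 0 of 2 arrays well above background, the fitted difference of 0.63 (adjusted p = 0.585) turned to -0.31 without the 24 h IL-13 array. The fitted ATRA difference of -0.41 turned to 0.30 without the 12 h ATRA array. Ctsm, a cathepsin known from placenta, was well above background on 6 arrays, with 3.74 and 3.93 in control cells, 3.13 and 3.12 with ATRA, 3.71 and 3.04 with IL-13, and 3.23 and 3.46 with both. ATRA against control gave -0.71 ± 0.24 (adjusted p = 0.257), with 1 of the 2 ATRA arrays well above background, and only -0.08 with normexp. Ctsm passed the filter only through its control and IL-13 arrays. That favoured lower values with ATRA, so the ATRA difference of Ctsm is also a description only. These 2 genes were just inside the filter. Ctsj, Ctsq and Ctsr were well above background on 0 arrays and Ctsw on 1.

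Of the 5 glycosidases, Gaa, the acid glucosidase that degrades glycogen, varied most. It gave 10.61 and 9.59 in control cells, 11.05 and 10.85 with ATRA, 9.995 and 8.11 with IL-13, and 10.73 and 10.35 with both. At each time the order was ATRA, both agents, control and IL-13 from high to low, and the 24 h IL-13 array stood far below the rest. The ATRA arrays overlapped no other treatment and those with both agents did not overlap IL-13, while the control arrays overlapped both of these last. IL-13 + ATRA against IL-13 gave 1.48 ± 0.41 (adjusted p = 0.149), made of 0.73 at 12 h and 2.23 at 24 h, and it passed only without the 12 h IL-13 array (2.16, adjusted p = 0.0438). IL-13 gave -1.05 ± 0.41 and ATRA 0.85 ± 0.41 against control (adjusted p = 0.206 and 0.434). Hexa, Gusb and Neu1, which act on gangliosides, glucuronides and sialic acid, stayed within 0.36 over all arrays, and Glb1, the acid galactosidase, within 0.47.

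Lipa, the acid lipase that frees cholesterol from its esters, gave 14.40 and 14.41 in control cells, 15.07 and 14.96 with ATRA, 14.38 and 14.40 with IL-13, and 15.03 and 14.51 with both. All 4 arrays with ATRA were above the 4 without it, the 24 h array with both agents by only 0.10. The difference was 0.61 ± 0.17 for ATRA (adjusted p = 0.171) and 0.37 ± 0.17 for IL-13 + ATRA against IL-13 (adjusted p = 0.301). A second Lipa probe gave 0.29 and 0.42 for these and -0.53 for IL-13 against control, where the brightest gave -0.01. Psap, the precursor of the saposins that activate lipid hydrolases, gave 12.13 and 11.57 in control cells, 12.27 and 12.15 with ATRA, 11.82 and 11.65 with IL-13, and 12.29 and 12.07 with both. The lower ATRA array was barely above the higher control, while both arrays with both agents were above those with IL-13, by 0.45 ± 0.14 (adjusted p = 0.191). Smpd1, the acid sphingomyelinase, gave -0.38 with both agents against control (adjusted p = 0.112). Npc1 and Npc2, which export cholesterol, and Asah1, the acid ceramidase, had no treatment difference at an unadjusted p under 0.05.

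Tfeb fell with both agents. Its signal was 7.40 and 7.64 in control cells, 6.86 and 6.61 with ATRA, 7.27 and 7.27 with IL-13, and 6.81 and 6.59 with both. All 4 arrays with ATRA were below the 4 without it. Against control it fell by 0.82 ± 0.16 with both agents, 1.77-fold lower (adjusted p = 0.0393). ATRA alone gave -0.78 ± 0.16 (adjusted p = 0.0865), IL-13 + ATRA against IL-13 gave -0.57 ± 0.16 (adjusted p = 0.144) and IL-13 alone gave -0.25 (adjusted p = 0.351). The call was lost without any 1 of the 8 arrays (adjusted p 0.0530 to 0.211), with quantile normalization (0.0585), normexp (0.0647), the authors' deposited log2 values (0.0577), no filter (0.180) and only the arrays compared (0.0821). Its direction was the same in all of these.

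**Figure D3:**
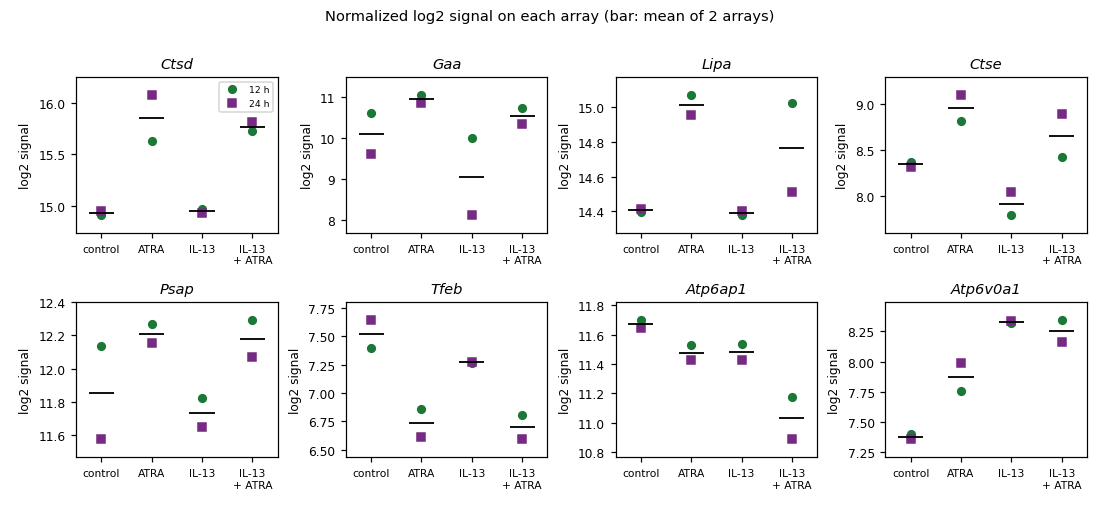
Normalized log2 signal on each of the 8 arrays for Ctsd, Gaa, Lipa, Ctse, Psap, Tfeb, Atp6ap1 and Atp6v0a1; circles are 12 h, squares 24 h and bars the mean of the 2 arrays of a treatment, with a separate scale for each gene. The 4 arrays with ATRA lie above the others for Ctsd and Lipa and below them for Tfeb, and the pair with both agents is lowest for Atp6ap1.

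Of the 3 membrane proteins, 0 passed the limma test in any treatment comparison, and 1 (Lamp2) had an unadjusted p under 0.05. Lamp1 gave 14.86 and 14.86 in control cells, 15.06 and 15.24 with ATRA, 14.85 and 14.64 with IL-13, and 14.95 and 15.15 with both. Each array with ATRA was above each without it, by 0.29 ± 0.14 for ATRA alone (adjusted p = 0.430), with a 95% interval of -0.06 to 0.65. Lamp2, needed for the fusion of autophagosomes, gave -0.36 and -0.35 at the 12 h and 24 h comparisons of IL-13 + ATRA against IL-13 (adjusted p = 0.178). Mcoln1, a calcium channel of the lysosomal membrane, spanned 0.53 over the 8 arrays, while its second probe gave -0.83 for both agents against control. The other 2 Lamp2 probes gave -0.20 and 0.31 for IL-13 + ATRA against IL-13.

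Among the 13 genes with CACGTG in their window the median difference was 0.07 with ATRA, against -0.05 for the 25 without the motif, and -0.04 against 0.07 with IL-13. For IL-13 + ATRA against IL-13 the medians were -0.14 and -0.07, and the 13 ranged from -0.52 (Atp6v0b) to 1.48 (Gaa). Of the 4 genes that passed the test, Ctsd had the motif and Tfeb, Atp6v0a1 and Atp6ap1 did not. These medians carry no test.

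TFEB's relatives were measured in the same arrays. Tfec, a member of the same MiT family found mainly in macrophages and osteoclasts, gave 7.69 and 7.80 in control cells, 7.35 and 7.66 with ATRA, 9.25 and 9.64 with IL-13, and 8.84 and 9.19 with both. All 4 arrays with IL-13 were over 1 log2 unit above the 4 without it. It rose by 1.70 ± 0.12 with IL-13 (adjusted p = 0.0176) and by 1.27 ± 0.12 with both agents against control (adjusted p = 0.00891). Mitf, the family member known from pigment cells and osteoclasts, gave 10.94 and 10.72 in control cells, 10.34 and 10.37 with ATRA, 11.33 and 11.39 with IL-13, and 10.47 and 10.14 with both. The IL-13 arrays were highest and those with ATRA lowest, and Mitf fell by 1.05 ± 0.14 when ATRA was added to IL-13 (adjusted p = 0.0340). Tfe3 was 0.62 ± 0.17 higher with ATRA than in control cells (adjusted p = 0.170), opposite in sign to Tfeb. Of the 17 relatives and regulators measured, these calls and that of Tfec for both agents against ATRA (1.51, adjusted p = 0.0233) were the only ones. That was 1 of 17 with IL-13, beside 1.28% of all genes, and 1 for both agents against IL-13, beside 2.58%. Both agents gave 1 against ATRA, beside 0.363%, and 1 against control, beside 8.45%. The Tfec call with IL-13 was lost without either control array or the 24 h IL-13 array (adjusted p 0.0549 to 0.110), and that of Mitf without any array but the 12 h IL-13 one (0.0743 to 0.202). Both were lost without the filter (0.168 and 0.209) and with only the arrays compared (0.0965 and 0.135), Mitf also with the mean of all probes (0.0826). The Tfec call against ATRA was lost without any array but the IL-13 ones (0.0872 to 0.160), without the filter (0.243) and with only the arrays compared (0.136). Its call for both agents against control was lost without the 24 h control array or either IL-13 + ATRA array (0.0554 to 0.0710) and without the filter (0.0753).

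**Figure D4:**
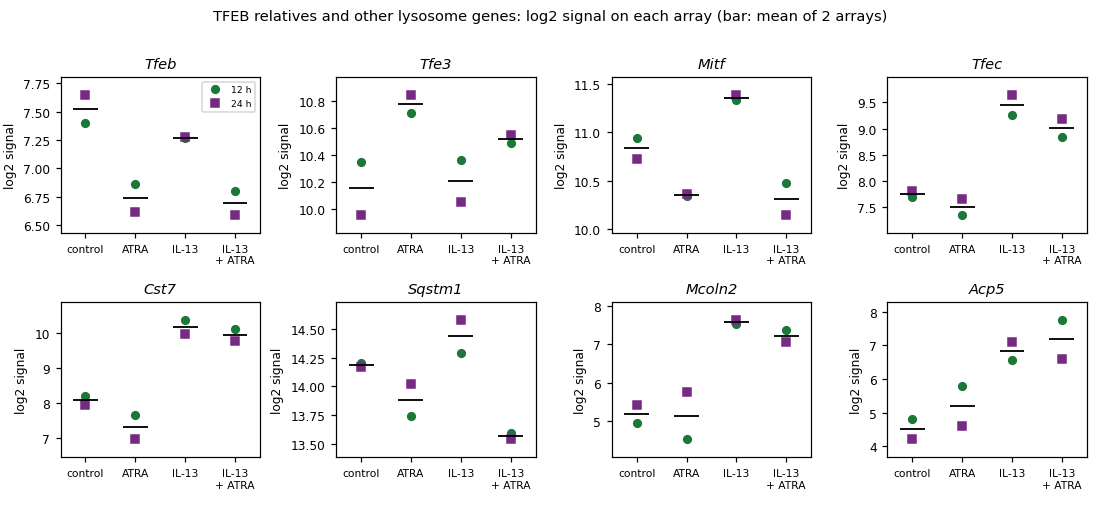
Normalized log2 signal on each of the 8 arrays for Tfeb, its relatives Tfe3, Mitf and Tfec, the cathepsin inhibitor Cst7, and Sqstm1, Mcoln2 and Acp5; circles are 12 h, squares 24 h and bars the mean of the 2 arrays of a treatment, with a separate scale for each gene. The 4 arrays with IL-13 lie above the others for Tfec, Cst7, Mcoln2 and Acp5, and those with ATRA lie below the others for Tfeb and Mitf.

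Of 6 measured cathepsin inhibitors, 1 was called, Cst7. It was called with IL-13 (beside 1.28% of all genes), with both agents against control (beside 8.45%) and with both against ATRA (beside 0.363%). Cystatin F, its product, is a secreted and endosomal inhibitor of cysteine cathepsins. It gave 8.20 and 7.95 in control cells, 7.66 and 6.96 with ATRA, 10.39 and 9.98 with IL-13, and 10.11 and 9.78 with both. Arrays with IL-13 did not overlap those without it. Cst7 rose by 2.11 ± 0.14 with IL-13 (adjusted p = 0.0176), by 1.87 ± 0.14 with both agents against control (adjusted p = 0.00627) and by 2.64 ± 0.14 with both against ATRA (adjusted p = 0.00991). The call with IL-13 was lost without either control array or the 24 h IL-13 array. It was also lost without the filter (adjusted p = 0.168) and with only the arrays compared (0.0755). With both agents against control the difference was 1.76 to 1.98 without single arrays, and the call was lost without the filter (0.0564). The call against ATRA was lost without either control array, the 12 h ATRA array or either IL-13 + ATRA array. Leaving out the filter (0.141) and using only the arrays compared (0.136) lost it too. Cst3 and Cstb, the main secreted and cytosolic inhibitors, gave -0.41 and 0.46 with IL-13 (adjusted p = 0.258 and 0.129).

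Further lysosomal genes outside the 57 were taken from lists of hydrolases and membrane proteins. Of 33 other hydrolases, Acp5, a tartrate-resistant phosphatase that is also an osteoclast marker, rose by 2.67 ± 0.43 (adjusted p = 0.0274), and Sgsh, a heparan sulfate sulfatase, fell by 0.74 ± 0.14 (adjusted p = 0.0381) with both agents against control, where 8.45% of all genes passed. In the other 4 treatment comparisons 0 of the 33 passed the limma test. An unadjusted p under 0.05 was reached by 15 of 33 for IL-13 against control (23.9% of all genes) and 10 for both agents against ATRA (13%). It was reached by 5 for ATRA against control (15.2%), 5 for both agents against IL-13 (19.1%) and 10 for both against control (28.2%). Among the 23 membrane proteins and transporters measured, Mcoln2 and Laptm4b rose with both agents against control. Mcoln2, a relative of Mcoln1, gave 4.96 and 5.41 and then 7.37 and 7.07 (2.04 ± 0.36, adjusted p = 0.0329). Laptm4b, well above background on 0 control arrays, was at least 1.90-fold higher with both agents (adjusted p = 0.0111) and at least 1.62-fold with ATRA (adjusted p = 0.0432), and IL-13 + ATRA against IL-13 gave 0.89 ± 0.11 (adjusted p = 0.0290), with 1 of the 2 IL-13 arrays well above background. Laptm4b passed the filter only through the treatments that included ATRA. The filter thus favoured higher values with ATRA, and its calls are a description only. Each of these 4 calls against control with both agents was lost without either control array or either IL-13 + ATRA array, and without the filter (adjusted p 0.0909 to 0.184). The Sgsh call was also lost without either ATRA array, without the time term (0.181), with time as a random block (0.127) and with only the arrays compared (0.0782). The Laptm4b call was also lost with normexp (0.510) and with trend and robust moderation (0.0653). The Laptm4b call with ATRA was lost without any 1 of the 8 arrays and in 6 of 9 other settings, among them normexp (0.924). That against IL-13 was likewise lost without any 1 array and in 6 of 9 other settings. Among these were normexp (0.32, adjusted p = 0.479), trend and robust moderation (0.156) and no time term (0.0814).

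Departures from additivity and effects of time were not detectable in these genes. The interaction of IL-13 and ATRA called 0 of 48 genes (0.0194% of all genes) in limma, with 1 at an unadjusted p under 0.05 (Atp6v0a1; 2.08%, against 3.67% of all genes), and its median half-width of 0.53 log2 units was wider than that of the simple comparisons. Between 24 h and 12 h, 0 of 48 were called beside 0% of all genes, with 4 at an unadjusted p under 0.05 (8.33%, against 12.2% of all genes). These were Gaa (-0.87 ± 0.29), Npc1 (-0.42 ± 0.13), Psap (-0.27 ± 0.10) and Atp6v0e2 (-0.22 ± 0.08), all lower at 24 h, and time and slide cannot be told apart. Counted without a test, 6 genes were at least 25% higher with ATRA than control at both times (12.5%, against 4.86% of all genes): Atp6v0a1, Ctsd, Ctse, Ctsz, Gaa and Lipa. Under the 3 other scalings these 6 became 4 to 5. Tfeb and Ctsm were at least 20% lower at both times (4.17% against 9.47%), and Ctsm had passed the filter only through treatments without ATRA. For IL-13 + ATRA against IL-13, 4 were higher (8.33% against 6.91%) and 7 lower (14.6% against 9.68%), the 7 being Atp6v1b2, Atp6v1e1, Atp6v1g2, Atp6v0b, Atp6ap1, Lamp2 and Tfeb; under the 3 other scalings the 7 became 4 to 5. With IL-13 alone, 3 were higher (6.25% against 6.08%) and 3 lower (6.25% against 12.6%). For IL-13 + ATRA against ATRA, 0 were higher (4.37% of all genes were) and 2 lower, Atp6ap1 and Lgmn (4.17% against 9.32%). For both agents against control, 3 were higher (6.25% against 8.71%) and 6 lower (12.5% against 15.2%).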

How the data were processed

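Total RNA of RAW264.7 cells was hybridized to 8 one-colour Agilent arrays, 2 per treatment. Per the file headers, Agilent Feature Extraction 10.7.1.1 made the deposited processed signals, which are intensity values with background subtracted and no normalization between arrays; its flags (other values of 0 or 1, per the file headers) marked background, saturation and outlying spots. The authors also deposited a table on a log2 scale; all 8 columns have a median of 4.57, each follows its own array's intensities (Spearman at least 0.999996) in the same direction, and its method and centring were not given in the sources used here, so it served as an alternative only.

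Control spots were removed and flagged spots set missing (43379 spots, 41174 probes; 0 probes were saturated). Log2 signals were scaled to each array's 75th percentile. A probe entered if 1 or more treatments had both of their arrays well above background (24017 probes), with the brightest probe per gene (15440 genes; names through RefSeq accessions for 27668 probes, symbols for 5589, synonyms for 471, the file otherwise). Limma 3.58.1 in R 4.3.3 fitted treatment and time, with 3 residual degrees of freedom, and was tested on simulated data. P-values are two-sided and adjusted by Benjamini-Hochberg over all genes; errors after ± are standard errors of differences with n = 2 arrays per treatment, whose number limits the precision. Members and gene lists were chosen with earlier results of these data known. Genes named with values are those called in any comparison, the 4 highest and 4 lowest in each of the first 3 comparisons, and Tfeb, Lamp1 and Ctsd; other genes were named after their values were seen. Alternatives were quantile and normexp (offset 50) processing, the deposited table, other filters, probe averaging, other time terms, the compared arrays alone, and each array left out. Counts of genes 25% higher or 20% lower at both times were added after seeing the data. A result for 1 further gene of these lists is not reported here.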

Additional observations from a re-analysis of the deposited data

How the results depend on the processing

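Of 10 settings other than leaving out arrays, 4 to 5 moved the number of lysosomal genes called in each of the first 3 comparisons. For IL-13 against control it was 1 and became 0 with normexp, with no filter on dim probes, with the mean of all passing probes and with only the arrays compared, and 0 without each array. For ATRA against control it was 0 and became 1 with quantile normalization, normexp, a filter requiring all 8 arrays and time as a random block, and 2 with trend and robust moderation; it was 0 without each array. For IL-13 + ATRA against IL-13 it was 0 and became 1 with quantile normalization, normexp, the authors' deposited values and the filter on all 8 arrays, 3 with trend and robust moderation, and 0 to 1 without single arrays. For IL-13 + ATRA against control it was 4 and became 0 with no filter and with only the arrays compared, 4 to 6 with the other 8 settings, and 0 to 4 without single arrays. The cause of these changes was not tested. With no filter, 28 genes of all were called for IL-13 + ATRA against control, against 1305 in the main setting.

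The median difference from control was -0.0169 with ATRA at 12 h, -0.00384 with ATRA at 24 h, 0.0363 with IL-13 at 12 h and -0.00838 with both agents at 24 h under normexp. Under quantile normalization it was -0.0751 with IL-13 at 12 h and -0.0921 with both agents at 12 h, and the authors' deposited values gave -0.0748 and -0.0910. The count of genes 20% lower at both times, added after seeing the data, became 1 under normexp for IL-13 (from 3) and for ATRA (from 2), and 4 with the authors' deposited values for IL-13 + ATRA against IL-13 (from 7). Among the genes named, Ctsg changed sign: without single arrays its ATRA difference ran from -1.11 to 0.30 and its IL-13 + ATRA against IL-13 difference from -0.31 to 1.56.

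The labels carry no replicate numbers, and the 12 h and 24 h arrays of a treatment were paired across treatments through time. Without that replicate block the counts of calls were 1, 0, 0, 0 and 5 for IL-13, ATRA, both against IL-13, both against ATRA and both against control. Signals of Ctsg and Ctsm near background limit what these arrays can show for them.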

Other observations

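Genes that tag lysosomal enzymes with mannose 6-phosphate and sort them were measured in all 16 listed cases. In each of the 5 treatment comparisons 0 of 16 were called in limma, beside 0.363% to 8.45% of all genes. At an unadjusted p under 0.05 there were 0 to 3, beside 13% to 28.2% of all genes. Their median difference was lowest for both agents against control, at -0.09 log2 units, and nearest to 0 for ATRA, at -0.001.

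Of 18 measured autophagy genes, 14 lay above control with IL-13 and 4 below (median 0.16). In limma 0 were called, beside 1.28% of all genes, with 4 at an unadjusted p under 0.05, beside 23.9%. Sqstm1, the autophagy receptor p62, gave 14.20 at 12 h and 14.17 at 24 h in control cells, 13.74 and 14.02 with ATRA, 14.29 and 14.58 with IL-13, and 13.59 and 13.54 with both. The arrays with both agents were the lowest pair. It fell by 0.87 ± 0.14 when ATRA was added to IL-13 (limma adjusted p = 0.0492), 1 call of 18 beside 2.58% of all genes. That call was lost without any 1 of the 8 arrays, where the difference ran from -0.99 to -0.76. Quantile normalization (adjusted p = 0.0739) and the deposited values (0.0759) also lost it. So did leaving out the filter (0.259), the mean of all probes (0.0511) and only the arrays compared (0.162). Map1lc3a, a protein of the autophagosome membrane, fell by 0.54 ± 0.10 with both agents against control (limma adjusted p = 0.0386). This was 1 call of 18, beside 8.45% of all genes. The Map1lc3a call was lost without any array but the IL-13 ones. It was also lost in 7 of 10 other settings, among them normexp (adjusted p = 0.148).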
